A study of Mus musculus with 2 samples.

Results

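The genes described here are the chemokines and chemokine receptors of the mouse heart. They were taken by name, as the protein-coding genes whose GENCODE M21 symbol starts with Ccl, Cxcl, Cx3cl, Xcl, Ccr, Cxcr, Cx3cr, Xcr or Ackr followed by a digit. The genes reported here are 58 of the 55401 in the count table. They are 37 ligands, 17 signalling receptors and 4 atypical receptors. Of the 58 genes, 25 reached 1 CPM (counts scaled to a library of 1000000) in at least 1 library and are described in detail, and 33 did not.

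RNA sequencing was run on hearts of C57BL/6 mice. The TAC with dioscin group had transverse aortic constriction, in which a suture narrows the aortic arch and the left ventricle must pump against more pressure. After surgery it received 4 weeks of dioscin, which is a steroidal saponin found in plants. The TAC group had the same surgery, and its treatment label names no drug, although dioscin stands in the treatment protocol of both samples. Each group had 1 library, called the dioscin library and the TAC library here, so differences between mice were not measured, no test of the treatment was possible, and the labels do not say whether a library came from 1 heart or several. The labels give no age, and all animals had surgery. The dioscin library held 17612259 counts in genes and the TAC library 16782741, with 25.5% and 31.6% of them from mitochondrially encoded genes in the dioscin and the TAC library. Markers of heart muscle fitted the tissue label. The 8 listed genes, which include Myh6, Tnnt2 and Ryr2, summed to 52514 CPM in the dioscin library and 48732 CPM in the TAC library, and none of them passed the size rule given below.

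Chemokines are small secreted proteins that guide the movement of white blood cells. They are named by the spacing of their first cysteines as CC, CXC, CX3C or XC ligands, and they are held on heparan sulfate chains of the vessel wall and matrix, where they form gradients. Most act on receptors with 7 membrane-spanning helices that couple to inhibitory G proteins, whereas the atypical receptors bind chemokines without that coupling and take them up. In the pressure-loaded heart the system is known for the recruitment of monocytes from blood, next to macrophages that already reside in the muscle.

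The 250 bases before the annotated start are shown for 6 ligands, because they cover both directions of difference and neighbouring genes that differ. Sequences and starts are from RefSeq on GRCm38.p6, each written 5′ to 3′ on the strand of its gene, and capitals mark the motif matches described after them. Ccl6 (chr11:83593088-83593337, minus strand) and Ccl9 (chr11:83578637-83578886, minus strand) are the most abundant ligands that were higher in the dioscin library. Ccl8 (chr11:82114935-82115184, plus strand) and Ccl12 (chr11:82101595-82101844, plus strand) are neighbours that differed in opposite directions. Cxcl1 (chr5:90890995-90891244, plus strand) and Cxcl10 (chr5:92348890-92349139, minus strand) are ligands of acute inflammation and of the interferon response.
Ccl6: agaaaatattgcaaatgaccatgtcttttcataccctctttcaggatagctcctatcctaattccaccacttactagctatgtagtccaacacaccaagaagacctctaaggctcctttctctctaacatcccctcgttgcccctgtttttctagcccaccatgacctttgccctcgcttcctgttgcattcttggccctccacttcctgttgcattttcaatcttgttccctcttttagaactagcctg
Ccl9: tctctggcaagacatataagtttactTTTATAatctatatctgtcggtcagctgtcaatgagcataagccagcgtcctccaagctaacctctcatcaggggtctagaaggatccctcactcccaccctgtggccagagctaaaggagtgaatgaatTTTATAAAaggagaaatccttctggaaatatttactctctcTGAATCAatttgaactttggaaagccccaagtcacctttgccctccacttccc
Ccl8: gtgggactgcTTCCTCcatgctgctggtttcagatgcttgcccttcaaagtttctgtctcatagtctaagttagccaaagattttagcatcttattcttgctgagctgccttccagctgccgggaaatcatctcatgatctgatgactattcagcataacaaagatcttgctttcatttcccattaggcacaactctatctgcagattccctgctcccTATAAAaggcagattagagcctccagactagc
Ccl12: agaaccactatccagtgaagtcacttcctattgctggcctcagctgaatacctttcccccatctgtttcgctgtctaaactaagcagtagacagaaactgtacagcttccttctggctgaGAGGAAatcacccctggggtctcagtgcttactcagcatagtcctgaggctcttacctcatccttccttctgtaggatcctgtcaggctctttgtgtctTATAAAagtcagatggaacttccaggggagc
Cxcl1: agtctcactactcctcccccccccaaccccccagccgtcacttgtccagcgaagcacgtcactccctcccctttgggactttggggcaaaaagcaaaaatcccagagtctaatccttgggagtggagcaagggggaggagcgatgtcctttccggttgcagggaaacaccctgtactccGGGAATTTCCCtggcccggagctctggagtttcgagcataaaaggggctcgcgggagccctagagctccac
Cxcl10: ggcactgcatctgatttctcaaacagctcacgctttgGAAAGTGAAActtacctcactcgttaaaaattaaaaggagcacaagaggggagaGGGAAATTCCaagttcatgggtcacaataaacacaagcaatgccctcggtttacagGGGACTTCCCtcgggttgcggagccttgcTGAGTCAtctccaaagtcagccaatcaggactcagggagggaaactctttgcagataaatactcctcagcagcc

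Simple letter motifs were searched on both strands of this window in the 19 of the 25 genes that matched the RefSeq table by symbol. Ccl2, Ccl5, Ccl7, Ccl11, Ccl24 and Cxcl16 had no entry. The NF-kB motif (GGGA, any 2 bases, T, any base, CC) was found in Cxcl1 and Cxcl10, and in 3.33% of all 32817 windows of the same length. In Cxcl1 its 2 matches, 1 on each strand, overlap, and in Cxcl10 the 2 matches lie apart. The interferon response motif (GAAA, any 2 bases, GAAA) was found in Cxcl10 and Cxcl14 (2.97% of all windows) and the STAT motif TTCNNNGAA in Cxcl14 (7.01%). The AP-1 motif TGANTCA was found in Ccl9, Ccl27a and Cxcl10 (6.75%), and the glucocorticoid motif (G, any base, ACA, any 3 bases, TGT, any base, C) in none of the 19 genes (0.387%). The PU.1 core GAGGAA was found in 5 genes, among them Ccl8 and Ccl12 (23.2% of all windows), and TATAAA in 10 genes (12.4%), among them Ccl8, Ccl9 and Ccl12, with overlapping matches of both strands in Ccl9. A match describes letters and not a bound site.

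Calls of higher or lower in the dioscin library needed 1 CPM or more in either library, a CPM ratio of at least 2 in either direction, and an exact 95% counting interval that left out a ratio of 1. This size rule compares the 2 libraries, and the interval covers counting error only. Of the 25 genes, 7 were called higher, 4 were called lower and 14 were not called. That is 28% higher and 16.0% lower. In either direction 44% were called. Over all 15697 genes with 1 CPM or more, the same rule called 10.5% higher and 8.77% lower, or 19.3% in either direction. Over the 13219 protein-coding genes among them it called 9.8% higher and 7.27% lower, or 17.1%. Over the 9115 protein-coding genes whose higher CPM lay within the range of the 25 genes, Cxcl12 left aside, it called 8.79% higher and 7.21% lower, or 16.0%. The share of the 25 genes called was thus above each of these, on 11 called genes. Of those, Ccl12, Cxcl13 and Ccl11 reached 1 CPM only in the library where they were higher. The genes were also chosen with earlier results of these data known, so the larger share is a description and not a test. The median log2 ratio of the 25 genes was 0.03, against 0.02 over all protein-coding genes tested, and single genes ran between -2.64 and 2.31. With libraries scaled by their counts without mitochondrial genes, which moves the median of all genes by -0.21, the split of the same 25 genes was 5 higher and 8 lower and their median was -0.17. In that scaling 6 further genes reached 1 CPM, and the split with them was 5 higher and 9 lower. Here and below, fewer cells of a type and less RNA per cell cannot be told apart.

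Among the genes at or above 1 CPM, the few receptors differed by role and the ligands went both ways. The signalling receptors below 1 CPM had ratios on both sides of 1, with intervals that hold 1. The atypical receptor Ackr4 also lies within another gene that was higher, as described below. Among the 3 signalling receptors at or above 1 CPM, 2 were lower and none higher, and all 3 intervals lay below 1. Among the 3 atypical receptors, 2 were higher and none lower, and all 3 intervals lay above 1, although that of Ackr3 did so narrowly and its ratio is under 1 with mitochondrial genes left out of the scaling. Of the 19 ligands, 5 were called higher, 2 lower and 12 neither. The summed counts of the 17 signalling receptors were 253 in the dioscin library and 554 in the TAC library, a CPM ratio of 0.461 (95% counting interval 0.395 to 0.536). Most of them came from the 2 lower genes, so this sum largely repeats those calls. Cxcr4 had 108 and 238 counts and Cx3cr1 43 and 176 in the dioscin and the TAC library. The summed counts of the 4 atypical receptors were 1140 and 801 in the dioscin and the TAC library, a ratio of 1.44 (1.31 to 1.57). Most of these counts were of Ackr3, with 702 in the dioscin library and 623 in the TAC library. The 2 higher genes gave most of the difference, so this sum too largely repeats their calls. The ligands summed to 6245 counts in the dioscin library and 5655 in the TAC library, a ratio of 1.11 (1.07 to 1.16) that is smaller than the shift between the scalings.

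**Figure D1:**
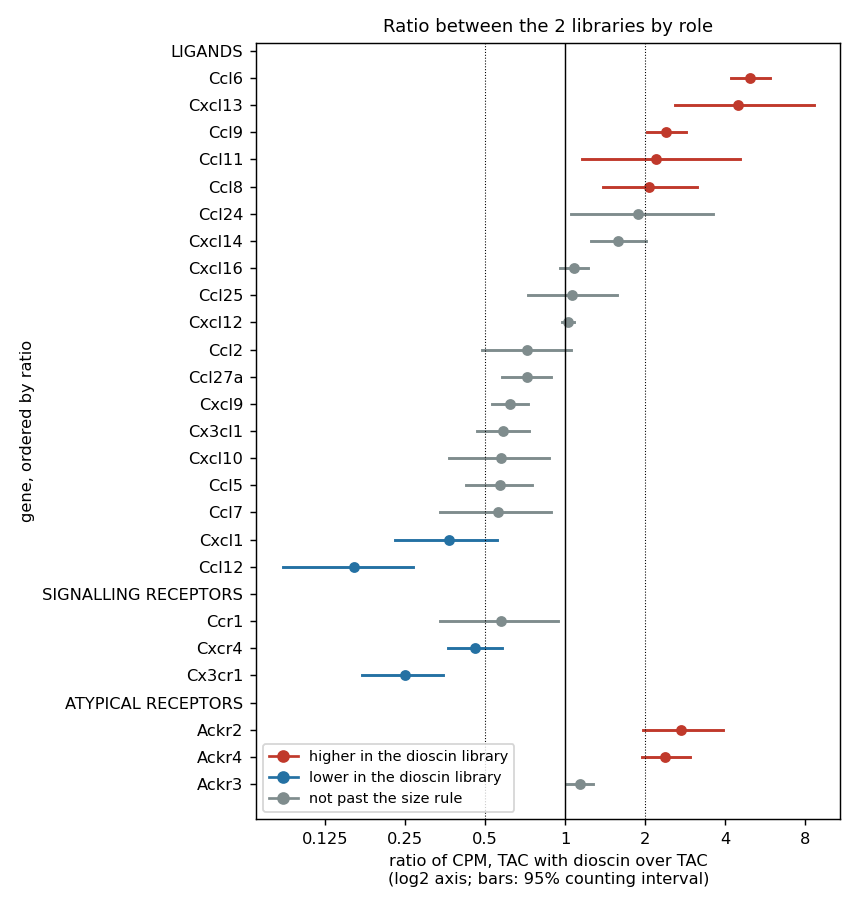
Ratio of CPM in the dioscin library over the TAC library for the 25 genes at or above 1 CPM, grouped by role, on a log2 axis. Points are ratios, bars are 95% counting intervals, dotted lines mark a ratio of 2 in either direction, and colours give the call. The signalling receptors all lie left of 1 and the atypical receptors right of it (Ackr3 falls under 1 when mitochondrial genes are left out of the scaling), while ligands spread from Ccl12 at 0.161 to Ccl6 at 4.97.

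Among the CC ligands, the myeloid chemokines Ccl6 and Ccl9 stood out by size and abundance. Ccl6, a ligand made by macrophages and other myeloid cells in rodents (ENSMUSG00000018927.3, GRCm38 chromosome 11, 83587882 to 83593087, minus strand), had 834 counts or 48.7 CPM in the dioscin library and 169 counts or 9.79 CPM in the TAC library. It was 4.97-fold higher (4.22 to 5.91), the highest ratio of the 25 genes. Ccl9, a related rodent ligand of the receptor Ccr1 whose gene lies 9.25 kb from Ccl6 (ENSMUSG00000019122.8, chromosome 11, 83572919 to 83578636, minus strand), had 485 counts in the dioscin library and 204 in the TAC library, and was 2.40-fold higher (2.03 to 2.84). On a per-length scale, TPM over the merged exons, Ccl6 had 47.9 in the dioscin library and 9.40 in the TAC library. By TPM it ranked 1 of 25 genes in the dioscin library and 8 of 25 in the TAC library, and it made up 23.2% of the ligands' summed TPM in the dioscin library and 5.31% in the TAC library. The promoter window of Ccl6 printed above held none of the motifs searched.

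The eotaxins attract eosinophils through Ccr3. Ccl11, eotaxin-1 (ENSMUSG00000020676.2), had 31 counts in the dioscin library and 14 in the TAC library, and was 2.19-fold higher (1.15 to 4.54). Without mitochondrial genes in the scaling its log2 ratio was 0.93, under the threshold. Ccl24, eotaxin-2, had 34 counts in the dioscin library and 18 in the TAC library, with a ratio of 1.88 (1.05 to 3.58) that stayed under the rule. Judged by the higher of their 2 levels, both are the least abundant of the 25 genes in CPM, so their intervals are wide, and their receptor Ccr3 had 0 counts in the dioscin library and 1 in the TAC library.

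The monocyte-attracting group on chromosome 11 did not move as one. Ccl12, a mouse attractant of monocytes (ENSMUSG00000035352.3, chromosome 11, 82101845 to 82103400, plus strand), had 16 counts or 0.935 CPM in the dioscin library and 103 counts or 5.96 CPM in the TAC library. It was 6.22-fold lower (3.75 to 11.6), the lowest ratio of the 25 genes. In TPM it had 3.07 in the dioscin library and 19.2 in the TAC library, where only Cxcl12 was above it. Ccl8, of the same family and in mice a ligand of Ccr8 (ENSMUSG00000009185.2, chromosome 11, 82115185 to 82116799, plus strand), starts 11.8 kb past the end of Ccl12. It had 78 counts or 4.56 CPM in the dioscin library and 38 counts or 2.20 CPM in the TAC library, and was 2.06-fold higher (1.39 to 3.14), just past the threshold. With libraries scaled by total counts its log2 ratio was 0.96, and without mitochondrial genes 0.84, both under the threshold. Ccl2, the main monocyte attractant, had 49 counts in the dioscin library and 69 in the TAC library, a ratio of 0.719 (0.486 to 1.05) whose interval holds 1. Ccl7, a further monocyte attractant, had 29 counts in the dioscin library and 53 in the TAC library, a ratio of 0.556 (0.338 to 0.884), not past the rule.

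Position was not used to choose the genes, and neighbours differed. In the cluster of 6 genes from Ccl2 to Ccl1, 5 reached 1 CPM, of which Ccl8 and Ccl11 were higher and Ccl12 was lower. In the cluster of 5 genes from Ccl5 to Ccl4, Ccl6 and Ccl9 were higher. Ccl5, which attracts T cells and monocytes and starts the same cluster, had 79 counts in the dioscin library and 141 in the TAC library, a ratio of 0.567 (0.424 to 0.750), not past the rule. Ccl3 and Ccl4, inflammatory ligands at the other end, stayed below 1 CPM, with 13 and 3 counts in the dioscin library and 8 and 6 in the TAC library. The pairs Ccl9 with Ccl6 and Ccl12 with Ccl8 thus give one neighbourhood of like direction and one of opposite direction.

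**Figure D2:**
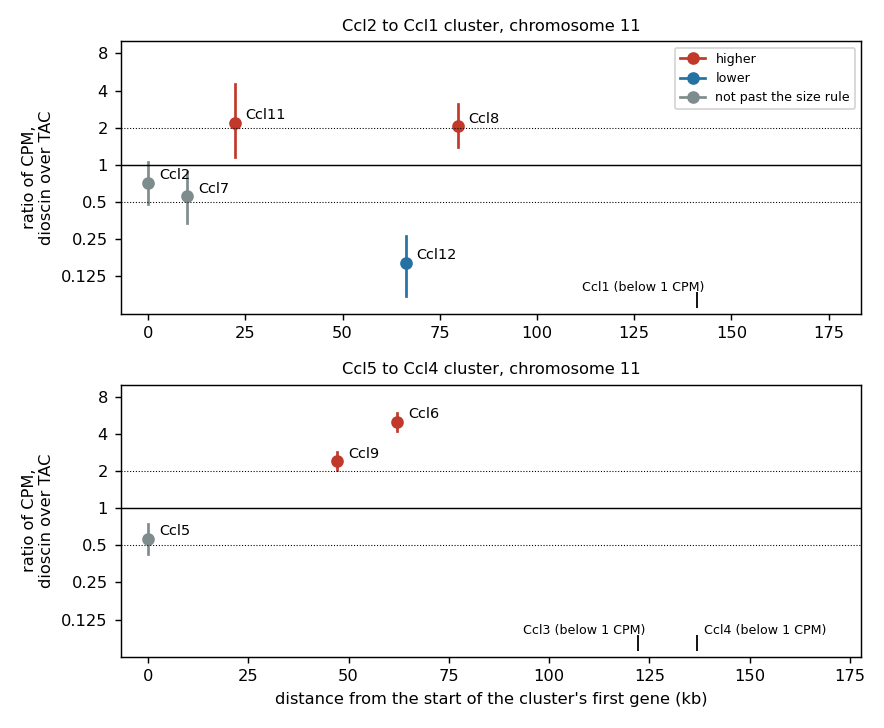
Ratio of CPM in the dioscin library over the TAC library against distance in kb from the start of the first gene, for the 2 CC ligand clusters of chromosome 11. Points are ratios on a log2 axis, bars are 95% counting intervals, colours give the call, and ticks mark genes below 1 CPM. Ccl12 at 0.161 lies beside Ccl8 at 2.06, and Ccl9 at 2.40 beside Ccl6 at 4.97.

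Other CC ligands at or above 1 CPM did not pass the rule. Ccl27a, known for the homing of T cells to skin, had 155 counts in the dioscin library and 218 in the TAC library, a ratio of 0.718 (0.580 to 0.885). Of the 50-base words in its transcripts, 45.0% also occur in transcripts of other genes, among them Ccl27b, so its counts are uncertain. Ccl25, known for homing to gut and thymus, had 58 counts in the dioscin library and 55 in the TAC library, a ratio of 1.06 (0.723 to 1.57) whose sign turns without mitochondrial genes in the scaling.

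Among the 7 CXC ligands at or above 1 CPM, 1 was higher and 1 lower. Cxcl13, the attractant of B cells (ENSMUSG00000023078.6, chromosome 5, 95956951 to 95961068, plus strand), had 68 counts or 3.97 CPM in the dioscin library and 15 counts or 0.869 CPM in the TAC library, and was 4.46-fold higher (2.59 to 8.62). Its receptor Cxcr5 had 6 counts in the dioscin library and 12 in the TAC library, and 6 of the 6 B cell markers at or above 1 CPM were lower in the dioscin library, as detailed with the marker lists. The part of B cells in the level of Cxcl13 was not tested.

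Cxcl1, an attractant of neutrophils through Cxcr2 (ENSMUSG00000029380.11, chromosome 5, 90891241 to 90893115, plus strand), had 30 counts or 1.75 CPM in the dioscin library and 84 counts or 4.86 CPM in the TAC library. It was 2.75-fold lower (1.81 to 4.36). Its cluster mates of the same kind stayed below 1 CPM, with 2 counts in the dioscin library and 6 in the TAC library for Cxcl2, and 2 and 13 counts in the dioscin and the TAC library for Cxcl5. Cxcr2 itself had 4 counts in the dioscin library and 9 in the TAC library. These genes all had fewer reads in the dioscin library, but only Cxcl1 reached the limit of 1 CPM.

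The interferon-induced ligands Cxcl9 and Cxcl10, which attract T cells through Cxcr3 and lie 18.6 kb apart on chromosome 5, had nearly the same ratio. Cxcl9 had 264 counts in the dioscin library and 430 in the TAC library, a ratio of 0.620 (0.529 to 0.724). Cxcl10 had 36 counts in the dioscin library and 64 in the TAC library, a ratio of 0.571 (0.366 to 0.867). Neither passed the rule, and Cxcr3 had 14 counts in the dioscin library and 13 in the TAC library. The whole of Cxcl10 lies within the opposite-strand gene Art3, which was 3.14-fold higher (2.94 to 3.35), and with a library kit that does not mark strand the reads of such a pair cannot be told apart where they overlap.

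The most abundant CXC ligand by CPM and by TPM did not differ beyond 2-fold. Cxcl12, which retains stem cells and lymphocytes in tissue and acts on vessels (ENSMUSG00000061353.11, chromosome 6, 117168535 to 117181367, plus strand), had 3108 counts or 182 CPM in the dioscin library and 3066 counts or 178 CPM in the TAC library. Its ratio was 1.02 (0.973 to 1.08), and its log2 ratio turns to -0.05 with libraries scaled by total counts and to -0.17 without mitochondrial genes. Cxcl16, a membrane-bound ligand of Cxcr6 that can be shed, had 553 counts in the dioscin library and 516 in the TAC library, a ratio of 1.08 (0.957 to 1.22) that is also under 1 without mitochondrial genes. The interval of either gene leaves no room for a 2-fold difference between these libraries. Of the exonic length of Cxcl16, 18.3% overlaps the opposite-strand gene Zmynd15. Cxcl14, a chemokine of epithelia and connective tissue, had 182 counts in the dioscin library and 116 in the TAC library, a ratio of 1.58 (1.25 to 2.02), not past the rule.

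Cx3cl1, fractalkine, is made as a membrane-bound adhesion molecule of endothelium and is the ligand of Cx3cr1. It had 129 counts in the dioscin library and 223 in the TAC library, a ratio of 0.585 (0.466 to 0.728), not past the rule.

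**Figure D3:**
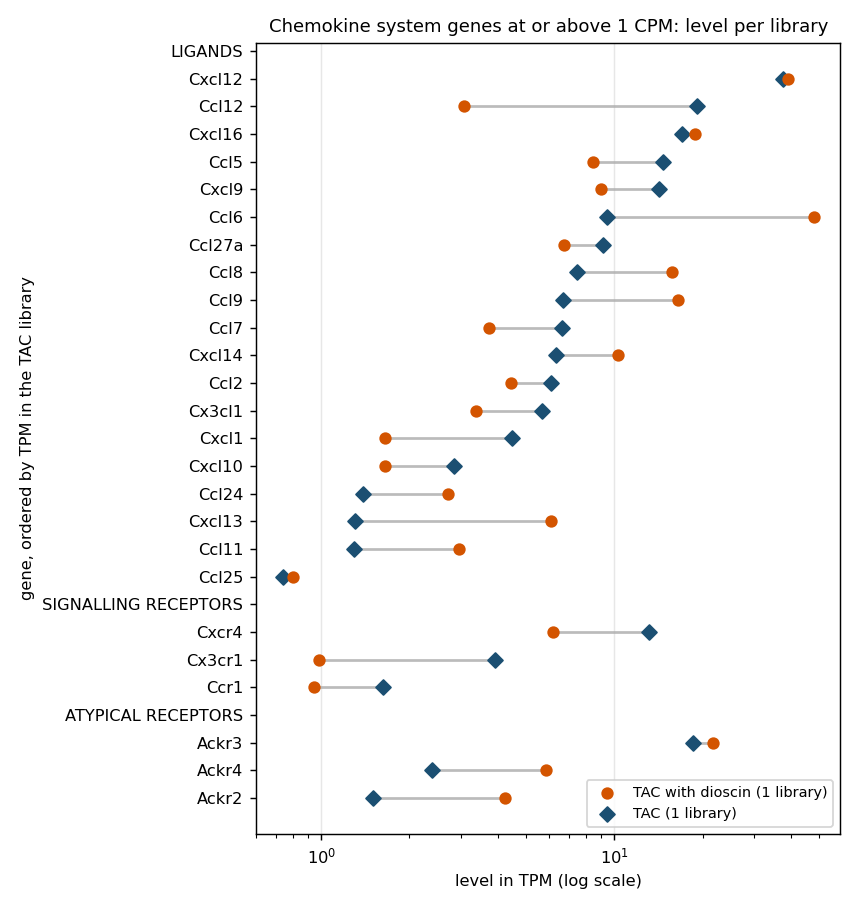
Level of each of the 25 genes in TPM in the dioscin library (circles) and in the TAC library (diamonds), 1 library each, on a log axis, by role and in order of the TAC level. In the dioscin library Ccl6 is first at 47.9 TPM, ahead of Cxcl12 at 39.2 TPM. In the TAC library Cxcl12 is first at 37.5 TPM, ahead of Ccl12 at 19.2 TPM.

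The signalling receptors were lower or not past the rule. Cx3cr1, the fractalkine receptor of monocytes and of many tissue macrophages (ENSMUSG00000052336.7, chromosome 9, 119901616 to 120069879, minus strand), had 43 counts or 2.51 CPM in the dioscin library and 176 counts or 10.2 CPM in the TAC library. It was 4.02-fold lower (2.89 to 5.80). Cxcr4, the receptor of Cxcl12 on white blood cells and endothelium (ENSMUSG00000045382.6, chromosome 1, 128588199 to 128592293, minus strand), had 108 counts in the dioscin library and 238 in the TAC library, and was 2.18-fold lower (1.73 to 2.77). Ccr1, the receptor of Ccl6 and Ccl9 in mice, had 26 counts in the dioscin library and 46 in the TAC library, a ratio of 0.575 (0.338 to 0.942) that did not pass the rule. In TPM, Cxcr4 was the most abundant of the 3 in both libraries, at 6.16 in the dioscin library and 13.1 in the TAC library. Cx3cr1 had 0.984 TPM in the dioscin library and 3.90 TPM in the TAC library, and Ccr1 had 0.946 and 1.62 TPM in the dioscin and the TAC library.

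The atypical receptors were higher or not past the rule. Ackr2, which takes up inflammatory CC chemokines (ENSMUSG00000044534.8, chromosome 9, 121898355 to 121911074, plus strand), had 128 counts or 7.48 CPM in the dioscin library and 47 counts or 2.72 CPM in the TAC library. It was 2.73-fold higher (1.95 to 3.92). Ackr4, which takes up Ccl19, Ccl21 and Ccl25 (ENSMUSG00000079355.5, chromosome 9, 104084157 to 104126933, minus strand), had 305 counts in the dioscin library and 129 in the TAC library, and was 2.38-fold higher (1.94 to 2.95). The whole of Ackr4 lies within the opposite-strand gene Acad11, whose exons overlap 8.90% of its exonic length. Acad11 was 2.69-fold higher (2.39 to 3.05). Without strand, reads from the shared exonic bases may belong to either gene, and so may reads from the other exons of Ackr4 if unspliced Acad11 RNA was sequenced. The part of Acad11 in the count of Ackr4 was not tested. Ackr3, which removes Cxcl12, had 702 counts in the dioscin library and 623 in the TAC library, a ratio of 1.14 (1.02 to 1.27) that did not pass the rule and whose log2 value turns to -0.02 without mitochondrial genes in the scaling. Ackr1, the chemokine receptor of small veins and red cells, had 5 counts in the dioscin library and 2 in the TAC library.

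Of 25 textbook pairs of ligand and receptor, 5 had both genes at or above 1 CPM. Ligand and receptor both had ratios under 1 for Cx3cl1 with Cx3cr1 (log2 ratios of -0.77 for the ligand and -2.01 for the receptor), and the receptor passed the rule while the ligand did not. Cxcl12 had a log2 ratio of 0.03 beside -1.12 for its signalling receptor Cxcr4 and 0.18 for its atypical receptor Ackr3. Ccl6 and Ccl9 had 2.31 and 1.26, beside -0.80 for Ccr1. In the pairs of Ccl6 and Ccl9 with Ccr1 the ligand was higher and the receptor did not pass, and in that of Cxcl12 with Cxcr4 the receptor was lower and the ligand did not pass.

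The 33 genes below 1 CPM had at most 16 counts in the dioscin library and 13 in the TAC library, and 7 of them had none in either. They are 18 ligands, 14 signalling receptors and 1 atypical receptor. At 3 counts, the floor for a gene with no read is 0.175 CPM in the dioscin library and 0.174 CPM in the TAC library. Just inside the limit of 1 CPM were Ccl11, Ccl24 and Ccr1, at 1.81, 1.99 and 1.52 CPM in the dioscin library and 0.811, 1.04 and 2.66 CPM in the TAC library. Just outside were Cxcr6, Cxcr3 and Ccl3, at 0.935, 0.818 and 0.759 CPM in the dioscin library and 0.753, 0.753 and 0.463 CPM in the TAC library. Without the limit, Cxcl5 and Ccl28 would also count as lower, Ccl28, a mucosal ligand, with 0 counts in the dioscin library and 8 in the TAC library. Ccl21a, Ccl21b, Ccl19 and Ccl27b share 52.0% or more of their 50-base words with other genes, so a low unique count there does not show a low level.

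Genes of the chemokine system that the name rule misses were listed separately, and 11 of the 12 had 1 CPM or more. Of these, 4 passed the rule as higher and none as lower, so 36.4% were called, against 19.3% of all genes. The median log2 ratio of the 11 genes was 0.18, smaller in size than the shift of -0.21 without mitochondrial genes in the scaling. Dpp4, a protease that trims the ends of Cxcl12 and other chemokines, had 271 counts in the dioscin library and 59 in the TAC library, and was 4.60-fold higher (3.49 to 6.25). Ccrl2, which binds chemerin without signalling, had 221 and 89 counts in the dioscin and the TAC library and was 2.50-fold higher (1.95 to 3.24), and Rarres2, which encodes chemerin, had 1371 and 671 counts and was 2.06-fold higher (1.88 to 2.26). The log2 ratio of Rarres2 was under the threshold with total counts (0.96) and without mitochondrial genes (0.84), which leaves 3 higher genes in this list. Ppbp, a platelet chemokine, had 74 counts in the dioscin library and 31 in the TAC library and was 2.39-fold higher (1.56 to 3.79). Its companion Pf4 had a ratio of 1.14 (0.926 to 1.40), and the sheddases of Cx3cl1 and Cxcl16, Adam10 and Adam17, had 1.13 (1.04 to 1.23) and 0.663 (0.594 to 0.740).

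Downstream of the receptors, 35 of 36 signalling genes had 1 CPM or more, of which 2 passed as higher and 5 as lower, with a median log2 ratio of -0.02. The share called, 20%, is near the 19.3% of all genes, so the count says nothing particular about the list. Ptk2b, a focal adhesion kinase and the other higher gene beside Gng2, was under the threshold with total counts and without mitochondrial genes. Gng2, a G protein gamma subunit, was 6.10-fold higher (4.92 to 7.70) and Gng11, another, 2.59-fold lower (2.39 to 2.81), with 577 and 837 counts in the dioscin library and 95 and 2186 in the TAC library. Rasgrp2, an activator of the integrin switch Rap1, was 2.46-fold lower (2.32 to 2.61), and Pxn, the focal adhesion adaptor paxillin, 2.17-fold lower (2.07 to 2.28). Among heparan sulfate proteoglycans and enzymes of their chains, 16 of 17 had 1 CPM or more, with a median of 0.72. The share called was 25%, which on 16 genes is near the 19.3% of all genes, so this count too says nothing particular about the list. The 4 called genes passed as higher, and none passed as lower. They were Gpc3, a glypican, at 10.3-fold (7.19 to 15.6), Sulf1, a sulfatase that edits the chains, at 2.76-fold (2.42 to 3.17), and the proteoglycans Sdc1 at 2.64-fold (1.95 to 3.64) and Gpc4 at 2.17-fold (1.76 to 2.72). Without mitochondrial genes Gpc4 had a log2 ratio of 0.92, under the threshold, and Gpc6 passed as higher. Hspg2, which encodes perlecan, was 1.98-fold lower (1.92 to 2.04), just under the threshold, and passed as lower with DESeq2 size factors, total counts and without mitochondrial genes. The summed CPM of that list, 921 in the dioscin library and 1126 in the TAC library, had the opposite direction to its median. Hspg2 carried this, since the other 16 genes summed to 535 CPM in the dioscin library and 361 CPM in the TAC library.

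Markers of the cells that make or carry these genes differed between the libraries too. Of 12 macrophage markers, 3 were higher and 1 lower, and their summed level was 618 CPM in the dioscin library and 307 CPM in the TAC library. The higher ones were Lyve1 at 9.67-fold (8.10 to 11.7), Cd163 at 3.83-fold (3.33 to 4.42) and Lyz2 at 2.65-fold (2.49 to 2.82). The Fc receptor gene Fcgr1 was 2.24-fold lower (1.54 to 3.36). Cd163 is a gene of resident macrophages. Lyve1 is shared by such macrophages and lymphatic endothelium, and the part of either in its level was not tested. Of the 12 ratios 11 were above 1, and 8 intervals lay above 1, with a median log2 ratio of 0.54. The 8 markers that did not pass ran between ratios of 1.01 for Cd68 (0.803 to 1.27) and 1.64 for Adgre1 (1.20 to 2.26). B cell markers summed to 8.35 CPM in the dioscin library and 33.1 CPM in the TAC library (6 of 7 lower), T and NK cell markers to 157 counts in the dioscin library and 294 in the TAC library (3 of 10 lower, with Ncr1 at 0 in the dioscin library), neutrophil markers to 6.25 and 20.3 CPM (3 of 9 lower, with Ly6g and Cd177 at 0 in both libraries and Camp at 0 in the TAC library) and dendritic cell markers to 45.9 and 94.6 CPM (2 of 7 lower). In the dendritic list Zbtb46 alone had 29.5 CPM in the dioscin library and 77.4 CPM in the TAC library, the other 6 markers summed to 16.4 and 17.1 CPM in the dioscin and the TAC library, and Clec9a had a ratio of 1.49 (1.21 to 1.84). Of 5 mast cell markers 2 were higher and 1 lower, at 7.42 CPM in the dioscin library and 19.9 CPM in the TAC library, where Tpsb2 was at 0. In the TAC library that sum is mostly Kit, which had 3.68 CPM in the dioscin library and 19.5 CPM in the TAC library, and the other 4 markers had the opposite direction, at 3.74 CPM in the dioscin library and 0.463 CPM in the TAC library. Of 5 platelet markers none passed, at 9.06 CPM in the dioscin library and 5.73 CPM in the TAC library, with Gp1bb at 0 in both and Gp6 at 0 in the TAC library. Only markers at or above 1 CPM could be called. In these lists they were 6 B cell, 6 T and NK cell, 3 neutrophil, 4 dendritic, 3 mast cell and 1 platelet marker. The part of these cells in the differences among the chemokine genes was not tested.

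Markers of structural cells moved as well. Fibroblast markers summed to 3353 CPM in the dioscin library and 1089 CPM in the TAC library (5 of 8 higher), and lymphatic endothelial markers to 88.3 and 76.1 CPM (3 of 5 higher). In the lymphatic list Pdpn, Mmrn1 and Reln were 5.07, 3.86 and 3.35-fold higher. Prox1 and Flt4 went the other way, with ratios of 0.813 (0.719 to 0.918) and 0.776 (0.684 to 0.879), not past the rule. Blood endothelial markers had 1744 and 1712 CPM in the dioscin and the TAC library (2 of 8 higher, 1 lower), and smooth muscle and pericyte markers 1430 and 1414 CPM (none of 7 called). Tissue markers of atrium, mesothelium and fat set the libraries apart. Atrial markers had 17319 CPM in the dioscin library and 592 CPM in the TAC library (5 of 6 higher, with Mybphl and Bmp10 at 0 in the TAC library), mesothelial markers 153 and 18.5 CPM (7 of 8 higher, with Krt8 and Krt18 at 0 in the TAC library) and fat cell markers 31.1 and 0.811 CPM (5 of 6 higher, with Cidec, Plin1 and Retn at 0 in the TAC library). In the atrial sums, Nppa alone had 12663 CPM in the dioscin library and 588 CPM in the TAC library. The other 5 atrial markers summed to 4656 CPM in the dioscin library and 4.00 CPM in the TAC library. How much of each heart was sampled is not given in the labels, and with 1 library a group this difference in tissue and the treatment cannot be told apart for any gene above.

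**Figure D4:**
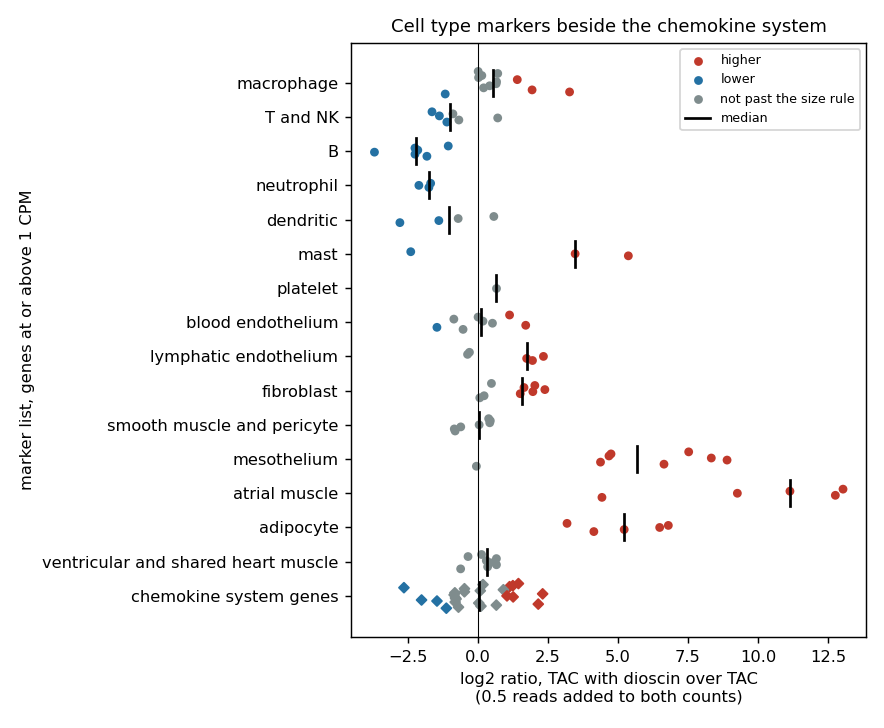
CPM in the dioscin library over CPM in the TAC library, as a log2 ratio, for 15 lists of cell type markers and, in the bottom row, the 25 chemokine system genes. Each point is a gene at or above 1 CPM, colours give the call and black lines are medians. Atrial and fat cell markers and 7 of 8 mesothelial markers lie far to the right, with Wt1 near 0. B cell and neutrophil markers and 5 of 6 T and NK cell markers lie to the left, with Cd8b1 to the right at 0.71, and the chemokine genes on both sides of 0 with a median of 0.03, which is -0.17 for the same 25 genes without mitochondrial genes in the scaling.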

How the data were processed

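Frozen hearts gave total RNA by Trizol, and each library was prepared from 1 ug with an Illumina TruSeq kit, per the labels' protocols. The kit was taken here not to mark strand, and this was not tested. The authors deposited 1 raw count per gene and library. HISAT2 2.1.0, HTSeq and the build mm10 are named in the submitters' processing notes. The HTSeq version, annotation release and strand setting are not given in the sources used here. HTSeq's 5 summary lines for reads given to no gene, which hold 71.5% of all assigned and unassigned reads in the dioscin library and 73.8% in the TAC library, were kept out. Reads with several alignments are among them, so near-identical copies are undercounted.

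Names, types and exons came from GENCODE M21 on GRCm38, the build mm10 names, and 55141 of 55401 identifiers matched without version. Counts were scaled with TMM factors (edgeR 4.0.16, R 4.3.3). Ratios had 0.5 reads added to both counts. Intervals are Clopper-Pearson (scipy 1.17.1), cover counting error only, and do not tell PCR copies apart. The scripts were tested on simulated data. Each of the 25 genes with 1 CPM or more in either library is named. A few genes that match the name pattern or a list are not reported here, and no count, sum or median of the chemokine genes or lists includes them. The members and lists were chosen with earlier results of these data known. From the macrophage list and the 3 pathway lists, up to 4 called genes with the interval bound farthest from 1 are named, and the others named there were chosen after their values were seen. The other marker lists are given by sums, calls and markers at 0, with single markers that carry or oppose a sum named after their values were seen. Alternatives were DESeq2 1.42.0 size factors, total counts with and without mitochondrial genes, other filters, pseudocounts and ratio thresholds.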

Additional observations from a re-analysis of the deposited data

How the results depend on the processing

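With DESeq2 size factors or 1 read added, the 7 higher and 4 lower counts were as reported. With total counts 6 were higher and 4 lower, and without mitochondrial genes in the scaling, which shifts all genes by -0.21 on the log2 scale, 5 were higher and 9 lower. In that scaling the 25 genes split into 5 higher and 8 lower, Ccl8 (log2 ratio 0.84) and Ccl11 (0.93) were no longer past the rule, Ccl5 (-1.02), Ccl7 (-1.05), Cxcl10 (-1.01) and Ccr1 passed it, as did Cxcl5, which then reached 1 CPM, and the sign turned for Ackr3, Cxcl12, Cxcl16 and Ccl25, none of them called. A filter of 5 CPM left 4 higher and 3 lower. A ratio of 1.5 gave 9 higher and 10 lower, a ratio of 3 gave 2 and 2, and an interval wholly beyond a ratio of 2 gave 3 and 2, since these thresholds keep more or fewer genes by construction. The median log2 ratio of 0.03 was 0.02 with DESeq2 size factors, -0.05 with total counts and, for the same 25 genes, -0.17 without mitochondrial genes, so its sign depends on the scaling. With the 6 genes that newly reached 1 CPM there it was -0.31, and it was -0.72 without a filter, where genes with 1 read enter. No called gene changed its direction under these scalings or with 1 read added. For the scalings this was fixed in advance, because a shift of -0.21 is too small to turn a ratio of 2. No paired analysis was possible because each group has 1 library and no test was made. Depth limits the genes near 1 CPM, such as Ccl11 with 31 reads in the dioscin library and 14 in the TAC library.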
